A study of Mus musculus with 21 samples.

Results

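The integrated stress response genes described here are 9 genes, Atf4, Ddit3, Atf3, Jdp2, Nupr1, Trib3, Chac1, Asns and Gdf15, of 34369 genes with a listed transcript. They were chosen by transcript levels measured in these libraries, in an Rbm10 gene trap embryonic stem (ES) line against its parental line and in Rbm10 knockout clones of md MEPA cells against wild type. The differences in those 2 comparisons are therefore given as descriptions of the 9 genes, with no test.

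In the integrated stress response, kinases that sense amino acid shortage, unfolded protein in the endoplasmic reticulum (ER), viral RNA or haem shortage phosphorylate the translation factor eIF2. General translation then slows, while the mRNA of the transcription factor ATF4 is translated more. ATF4 pairs with other basic leucine zipper (bZIP) proteins and switches on genes for amino acid synthesis and uptake, tRNA charging and redox balance, together with feedback inhibitors and, under lasting stress, genes of cell death.

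RBM10, encoded on the X chromosome, binds RNA and takes part in the choice of splice sites. RNA-seq of polyadenylated RNA covered 13 libraries, given as TPM, a transcript level corrected for length and scaled to a total of 1000000 in every library, and summed per gene. The ES libraries were 3 of CSI176, a male line that is hemizygous for a gene trap in Rbm10 (KO1 to KO3), and 3 of its parental line E14Tg2a.4 (WT1 to WT3), all grown on gelatin with LIF. Each ES genotype is 1 line, so line and genotype cannot be told apart. The md MEPA libraries, from a line of the mandibular part of the pharyngeal arch, were 4 CRISPR/Cas9 Rbm10 knockout clones, with a deletion in exon 3 (KO1, KO2) or exon 9 (KO3, KO4), and 3 wild-type samples (WT1 to WT3). MEPA cells derive from 11.5 d.p.c. embryos of CD1 females and an Immortomouse male, whose offspring carry a conditional immortalising transgene, and all md cells, clones and controls alike, were cultured with 100 U/ml murine interferon at 33 °C. Each clone has 1 library. Nothing in the labels says that the 3 libraries of a control or an ES line came from separate cultures, so p-values measure the spread between these libraries, which may be technical. RNA contacts of RBM10 were mapped in md MEPA cells by iCLIP, in which UV light at 254 nm (400 mJ per cm2) links protein to RNA and sequencing shows at which nucleotide. There were 4 libraries with an RBM10 antibody and 4 with rabbit IgG, holding 774816 to 2847066 and 103017 to 2214515 crosslinks.

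The promoters of the 9 genes are shown first, because several share a short element. C/EBP-ATF composite elements pair the binding sequence of a C/EBP protein with that of an ATF protein, and ATF4 is known to act through them. The motif TGATGNAA was searched on both strands from 250 bases before to 50 bases after each RefSeq transcription start (GRCm38.p6). It was found in 6 of the 9 genes, and in 1219 of 27025 genes with a promoter sequence (4.51%). Over single promoters these were 6 of 12 and 1304 of 32851 (3.97%). The lines give 30 bases around each match, 5′ to 3′ on the gene's strand, with the match in capitals.
Atf3: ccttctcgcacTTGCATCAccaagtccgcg
Jdp2: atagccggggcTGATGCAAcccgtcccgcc
Nupr1: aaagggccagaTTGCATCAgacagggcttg
Trib3: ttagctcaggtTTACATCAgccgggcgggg
Chac1: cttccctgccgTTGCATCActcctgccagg
Asns: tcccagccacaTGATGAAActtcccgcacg
The Atf3 stretch (minus strand) lies at chr1:191183425-191183454, with the match's first base 110 bases before the start, and the Nupr1 stretch (minus strand) at chr7:126625562-126625591, at the same distance. The Jdp2 stretch (plus strand, in 1 of its 3 promoters) lies at chr12:85599372-85599401, and its match starts 33 bases before the start. The Asns stretch (minus strand) lies at chr6:7693214-7693243, with its match 23 bases before the start. The Chac1 stretch (plus strand) lies at chr2:119351038-119351067, with its match 193 bases before the start, and the Trib3 stretch (minus strand) at chr2:152344028-152344057, with its match from base 15 after the start. For Trib3, alone among the 6 genes, this RefSeq start matched no annotated transcript start. Atf3, Nupr1 and Chac1 hold the same 8 letters, and Jdp2 holds them on the opposite strand. No match was found in these windows of Atf4, Ddit3 and Gdf15. A second motif, the palindrome TGACGTCA that ATF and CREB proteins bind, was in 0 of the 9 genes and in 2.03% of genes with a promoter sequence. A match is a run of letters and not a measured binding site.

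In the ES libraries Rbm10 itself had 4.27, 3.63 and 4.25 TPM in the gene trap line and 32.5, 33.5 and 32.2 TPM in the parental line, with no overlap. All 9 stress response genes had lower mean levels in the gene trap line, by 2.08-fold for Asns to 17.6-fold for Nupr1 (ratio of mean TPM). In 8 of the 9 the gene trap libraries lay below every parental library without overlap, an order that 14.5% of the 12860 tested genes had, while 23.8% had the opposite one. That comparison was used to choose the genes, so the count is no evidence about them. In bulk samples fewer cells with a transcript and less transcript per cell cannot be told apart.

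The transcription factors come first. Atf4 (ENSMUSG00000042406.6, chr15:80085614-80087970, plus strand, mm9 as for all gene positions here) had 63.9, 18.7 and 17.2 TPM in KO1 to KO3 and 175, 178 and 139 TPM in WT1 to WT3 (33.3 ± 26.6 against 164 ± 21.7, SD, n = 3 each). The groups did not overlap, and KO1 held 3.57 times the mean of KO2 and KO3. Ddit3 encodes CHOP, a bZIP protein linked to cell death under lasting stress (ENSMUSG00000025408.9, chr10:126727830-126733344, plus strand). It had 28.2, 3.49 and 3.14 TPM in the gene trap line and 97.0, 107 and 22.2 TPM in the parental line (11.6 ± 14.4 against 75.5 ± 46.5). It is the gene whose groups overlapped, since KO1 lay above WT3. Ddit3 overlaps Mars on the opposite strand, and whether the libraries kept strand is not given in the sources used here, so reads of this pair may be divided with error.

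Atf3, another stress-inducible bZIP factor (ENSMUSG00000026628.8, chr1:192994175-193007219, minus strand), was low in both lines, at 0.731, 0.277 and 0.352 TPM against 1.86, 2.78 and 1.51 TPM. Jdp2 encodes a bZIP repressor that dimerizes with JUN proteins (ENSMUSG00000034271.8, chr12:86940366-86980827, plus strand). It had 1.28, 0.540 and 0.446 TPM against 7.13, 7.65 and 4.07 TPM. Both genes kept the groups apart, but they met the minimum of 1 TPM in 3 libraries mainly through the parental line: Atf3 reached 1 TPM in 3 libraries, and Jdp2 and Gdf15 in 4. Nupr1, a small stress-induced chromatin protein (ENSMUSG00000030717.3, chr7:133766763-133770524, minus strand), had 14.2, 1.31 and 2.36 TPM against 127, 148 and 38.9 TPM (5.96 ± 7.16 against 105 ± 57.8). Of the 9 genes it had the largest ratio of means and one of the widest spreads within the parental line.

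Trib3 encodes a pseudokinase that binds ATF4 and restrains it (ENSMUSG00000032715.8, chr2:152163158-152169768, minus strand). Its levels were 12.2, 3.12 and 2.52 TPM in the gene trap line and 45.4, 44.3 and 24.1 TPM in the parental line. Chac1 encodes an enzyme that degrades glutathione (ENSMUSG00000027313.3, chr2:119176965-119180117, plus strand). It had 12.0, 1.22 and 1.13 TPM against 32.9, 35.0 and 24.5 TPM, and here KO1 lay 10.2 times above the mean of KO2 and KO3. Asns, asparagine synthetase (ENSMUSG00000029752.6, chr6:7625169-7643254, minus strand), was the gene with the smallest ratio, with 129, 113 and 102 TPM against 285, 291 and 142 TPM. Its groups were separated by a narrow margin, between KO1 and WT3. Gdf15, a secreted cytokine of the TGF-beta family that is used as a marker of cell stress (ENSMUSG00000038508.7, chr8:73153292-73156355, minus strand), had 1.14, 0.222 and 0.298 TPM against 6.63, 7.14 and 2.74 TPM.

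**Figure D1:**
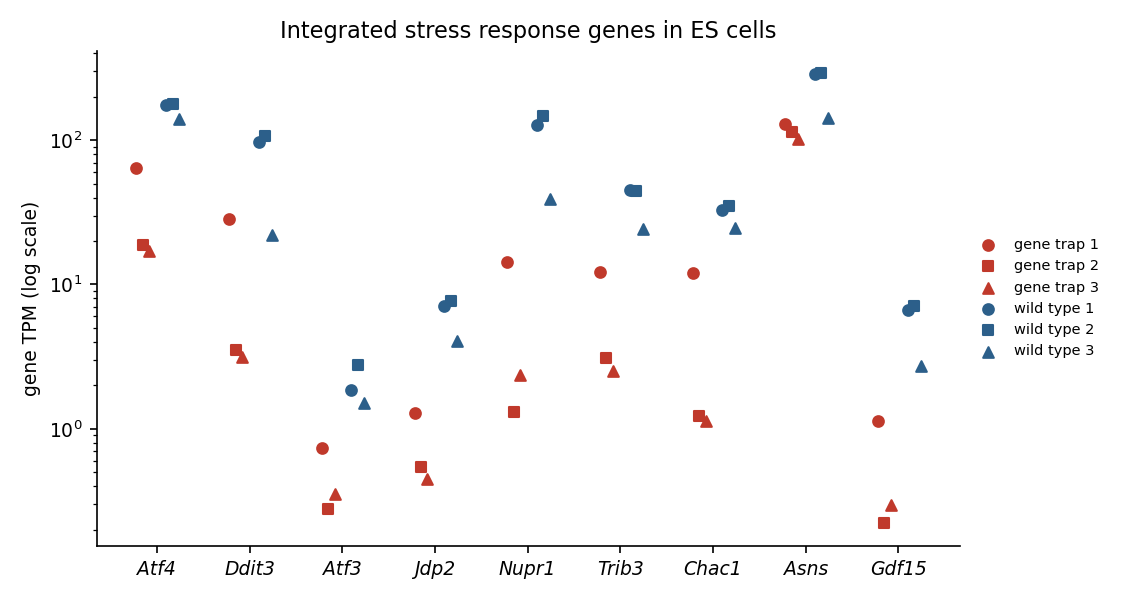
TPM of the 9 stress response genes (log axis) in each ES library, gene trap in red and parental line in blue, with the marker shape giving the library number. In every gene KO1 is the highest gene trap library and WT3 the lowest parental library, and in Ddit3 those 2 cross.

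The spread within each line had the same form in every gene. KO1 was the highest gene trap library and WT3 the lowest parental library in 9 of 9 genes, an order that 23.4% of the tested genes had (KO1 was the highest in 54.9% and WT3 the lowest in 39.6%). The spread of these 2 libraries was noted when the genes were chosen, so the count is no evidence about them. The tested genes also include genes higher in the gene trap line, in some of which, such as Hspa5, KO1 was the lowest gene trap library. KO1 exceeded the mean of KO2 and KO3 by 1.20-fold (Asns) to 10.2-fold (Chac1), and the mean of WT1 and WT2 exceeded WT3 by 1.27-fold (Atf4) to 4.61-fold (Ddit3). The mean log2(TPM + 1) over the 9 genes was 3.59, 2.11 and 2.10 in KO1 to KO3 and 5.26, 5.38 and 4.34 in WT1 to WT3. KO1 and WT3 thus lay between the other libraries of the 2 lines. Without these 2 libraries the ratio of parental to gene trap means was 9.87 for Atf4 in place of 4.94, 30.8 for Ddit3 in place of 6.50, 74.9 for Nupr1 in place of 17.6 and 28.8 for Chac1 in place of 6.45. It was 2.67 for Asns in place of 2.08. Leaving out the highest gene trap and the lowest parental library can only raise these ratios. The same 2 libraries also stood apart in the share of TPM from mitochondrially encoded genes, which was 5.69% in KO1 against 9.50% and 7.85% in KO2 and KO3, and 7.46% in WT3 against 5.42% in both WT1 and WT2. Its part in the differences was not tested.

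Markers of ES cells and of other cell types were summed in each library. All 8 pluripotency genes averaged at least 1 TPM. Their sum was 4709, 4250 and 4271 TPM in KO1 to KO3 and 5300, 5246 and 4429 TPM in WT1 to WT3. In this sum KO1 was the highest gene trap library and WT3 the lowest parental library, the order of the stress response genes, and KO1 lay above WT3. Of 8 feeder fibroblast genes 7 averaged under 1 TPM (sums of 2.98 to 4.13 against 4.00 to 6.22 TPM, with Postn and Lum at 0). Of 6 endothelial genes Pecam1, which mouse ES cells are known to express, and Tek reached 1 TPM, Cdh5 and Emcn were at 0, and the sum moved with the stress response genes, at 21.3, 10.9 and 11.7 TPM against 27.1, 28.9 and 22.6 TPM. Of 6 leukocyte genes Cd68 and Cd3e reached 1 TPM, Ptprc and Lyz2 were at 0, and the sums were 9.98 to 13.9 against 17.4 to 18.7 TPM. Of 6 epithelial genes Epcam, Cdh1, Krt8 and Krt18 reached 1 TPM and Krt5 was at 0, and the sum was higher in every gene trap library, at 228, 199 and 194 TPM against 170, 173 and 191 TPM. Of 6 primitive endoderm genes Gata4, Dab2 and Lama1 reached 1 TPM, with sums of 12.1 to 14.8 against 8.87 to 9.48 TPM. Of 8 arch mesenchyme genes Twist1 and Vim reached 1 TPM and Prrx1 was at 0, and the sum was 77.2, 112 and 120 TPM in KO1 to KO3 against 81.1, 86.5 and 159 TPM in WT1 to WT3. In that sum KO1 was the lowest gene trap library and WT3 the highest parental library, the reverse of the stress response genes. The part of these RNAs in the result was not tested.

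Genes around the 9 were taken from 9 lists of the pathway with 146 genes, none of them among the 9, and tested within all 12860 genes (limma on log2(TPM + 1), Benjamini-Hochberg adjusted p under 0.05). Of all tested genes 1576 passed (12.3%), 608 lower (4.73%) and 968 higher (7.53%) in the gene trap line. Of 141 tested pathway genes 28 fell and 17 rose. The lists and their genes were chosen with earlier results of these libraries known, so their direction is not independent of the 9 genes. With quantile normalization the split over all genes was 719 higher and 838 lower, in place of 968 and 608.

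Genes of amino acid supply made up 13 of the 28 falls. Of 18 tested enzymes of amino acid synthesis and one-carbon metabolism 7 fell and 1 rose, with a median log2 difference of -0.81, against 0.03 over all genes. Gpt2, an alanine transaminase, fell from 48.9, 46.9 and 35.3 TPM to 20.3, 6.96 and 7.14 TPM (log2 difference -1.99, SE 0.38, adjusted p = 0.0278). Pck2, the mitochondrial enzyme that makes phosphoenolpyruvate, differed by -1.93 (SE 0.40), and Psph, the last enzyme of serine synthesis, by -1.16. Bcat1, a branched-chain transaminase (-0.93), and Shmt2, which passes serine carbon to folate in mitochondria (-0.84), fell as well. Mthfd1, the cytosolic folate enzyme, rose by 0.40. These values lie side by side with Asns, whose log2 difference was -0.99.

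Of 13 amino acid transporters 6 fell and 1 rose (median -0.43). Slc6a9, a glycine transporter, fell from 11.05, 14.4 and 6.64 TPM to 4.98, 1.45 and 1.59 TPM (-1.74, SE 0.40, limma adjusted p = 0.0394). Slc7a1, which carries cationic amino acids, differed by -1.36, Slc1a5, which carries glutamine, by -1.23, the large neutral amino acid carrier Slc7a5 by -0.86 and Slc38a7 by -0.75. Slc7a6, another cationic amino acid exchanger, rose, from 7.77, 7.92 and 7.09 TPM to 12.0, 13.4 and 13.5 TPM (+0.70). Of 20 cytosolic aminoacyl-tRNA synthetases, which charge tRNAs, 3 fell and 0 rose (median -0.47): Sars (-1.17), Aars (-0.96) and Mars (-0.79), the last of which overlaps Ddit3. All 3 lay close to the threshold, with limma adjusted p of 0.0476, 0.0484 and 0.0491. The synthetases had 0 calls with a pseudocount of 0.1, with no filter on low values or with the replicate number as a block. They had 6, all lower, with quantile normalization or with at least 5 TPM.

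Of 21 other effectors of the response 9 fell and 2 rose (median -0.59). Herpud1, an ER degradation factor, fell from 22.1, 25.9 and 23.3 TPM to 12.1, 4.92 and 4.73 TPM (-1.70, SE 0.31, limma adjusted p = 0.0269). Vegfa, an angiogenic growth factor, had the lowest adjusted p of the pathway genes, 0.00769 by limma, with 15.8, 11.4 and 12.8 against 44.2, 43.5 and 33.6 TPM (-1.53, SE 0.15). The hypoxia- and stress-induced Ndrg1 (-1.37), the secreted Stc2 (-1.32) and the mTORC1 inhibitor Ddit4 (-1.04) also fell, and the pro-apoptotic Bcl2l11 rose (+0.81).

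The sensors and the chaperones did not follow this direction, and the bZIP partners were divided. Of 18 tested eIF2 kinases, eIF2 and eIF2B subunits and phosphatase subunits 1 rose, Eif2b3 of the eIF2 exchange factor (+0.41), and 1 fell, Ppp1r15a (-0.85), the stress-induced phosphatase subunit that reverses eIF2 phosphorylation. The median was 0.03, that of all genes. Of 15 bZIP partners 3 rose, namely Jun (+0.85), Junb (+0.72) and Cebpd (+0.95), and 2 fell, Nfe2l1 (-0.64) and Atf6 (-0.59). The balance turned with the libraries, to 2 higher and 5 lower without WT3, 3 and 6 without KO1 and WT3, 3 and 3 without KO1, and 0 calls without KO2, KO3, WT1 or WT2. Atf5 and Cebpb, bZIP factors named after their values were seen, did not pass: Atf5 had 8.57, 6.05 and 7.85 TPM against 69.8, 78.6 and 10.8 TPM (-2.27, limma adjusted p = 0.0719) and Cebpb differed by -1.02 (adjusted p = 0.0741). Of 17 ER chaperones and unfolded protein response genes 5 rose and 0 fell (median +0.48). Hspa5, the main ER chaperone BiP, had 92.7, 225 and 239 TPM in the gene trap line and 48.0, 53.3 and 61.5 TPM in the parental line (+1.65, SE 0.35, limma adjusted p = 0.0345). KO1 again lay nearer to the parental libraries than KO2 and KO3 did. Hsp90b1 (+1.02), Pdia6 (+0.85), Calr (+0.83) and Pdia4 (+0.76), which fold or retain proteins in the ER, rose too. Of 10 mitochondrial proteostasis genes Hspd1 rose (+0.61), and of 9 oxidative stress genes 3 rose, Gclm (+0.54), Txnrd1 (+0.49) and Gclc (+0.43), which act in glutathione synthesis and thioredoxin reduction.

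The count of 45 calls moved with the libraries. It was 78 without KO1 (46 lower, 32 higher) and 100 without KO1 and WT3 (62 lower, 38 higher), but 1 without KO2, 1 without KO3, 0 without WT1 and 1 without WT2. Of the 45 genes 0 changed sign in these settings, which is no test of them, since they were picked for passing.

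**Figure D2:**
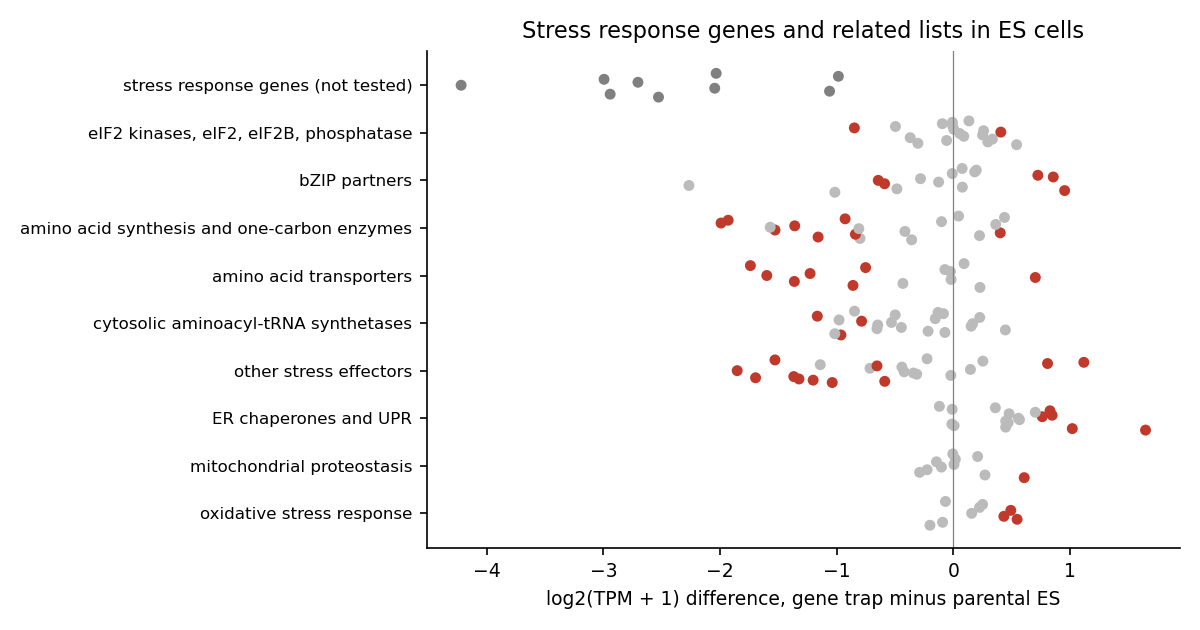
Difference of mean log2(TPM + 1), gene trap minus parental ES line, with 1 point per gene. The 9 stress response genes (dark grey, not tested) lie between -4.22 and -0.99, red points passed the limma test and light grey points did not. The synthesis, transporter, synthetase and other effector lists lie mostly left of 0 and the ER chaperones mostly right of it.

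In md MEPA cells the same genes spread between the clones and not between clones and wild type. Rbm10 had 23.2, 19.7, 7.20 and 3.49 TPM in KO1 to KO4 and 21.4, 23.2 and 23.7 TPM in the wild type. A transcript with a short deletion can keep its level, and the wild-type-like values of KO1 and KO2 neither support nor contradict their labels. Of the 9 genes 8 passed the filter on low values, and Gdf15 had at most 0.148 TPM in any md library. In 0 of the 8 were clones and wild type apart without overlap (4.38% of 12090 genes were lower and 6.33% higher in all clones). The log2 difference between clone and wild-type means ran from -0.25 (Asns) to 0.55 (Nupr1).

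Clone KO3 was the lowest of the 7 libraries in 7 of 8 genes, an order that 24.3% of tested genes had, and clones KO1 and KO4 lay above every wild-type sample in 8 of 8 (23.4%). Both held at once in 7 of 8 genes (9.55%). These orders were read from the clone values that chose the genes, so the counts are no evidence about them. Trib3 had the widest range, with 82.5, 41.4, 5.92 and 80.0 TPM in KO1 to KO4 and 43.0, 40.0 and 42.5 TPM in wild type, so that its highest clone held 13.9 times its lowest. Chac1 had 48.5, 26.8, 6.32 and 35.0 TPM against 20.8, 21.4 and 23.7 TPM. In both, KO3 lay far below the wild type, at 0.141 times its mean for Trib3 and 0.288 times for Chac1.

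Nupr1 had 91.1, 76.3, 17.5 and 83.6 TPM in the clones against 39.4, 36.3 and 39.8 TPM, with 3 clones above and KO3 below the wild type. Ddit3 had 121, 63.2, 33.7 and 219 TPM against 76.1, 51.9 and 59.3 TPM, highest in KO4. Atf4 had 548, 340, 207 and 462 TPM against 428, 410 and 416 TPM. Its highest clone held 2.65 times its lowest, against 5.21 times for Nupr1 and 6.50 times for Ddit3. Jdp2 had 34.6, 25.7, 14.4 and 38.1 TPM against 24.6, 20.5 and 24.6 TPM, and Asns 259, 156, 144 and 295 TPM against 239, 239 and 247 TPM. Atf3 was the exception to the order, with 21.96, 14.1, 13.8 and 32.5 TPM against 13.3, 17.0 and 16.8 TPM, since WT1 lay below KO3.

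**Figure D3:**
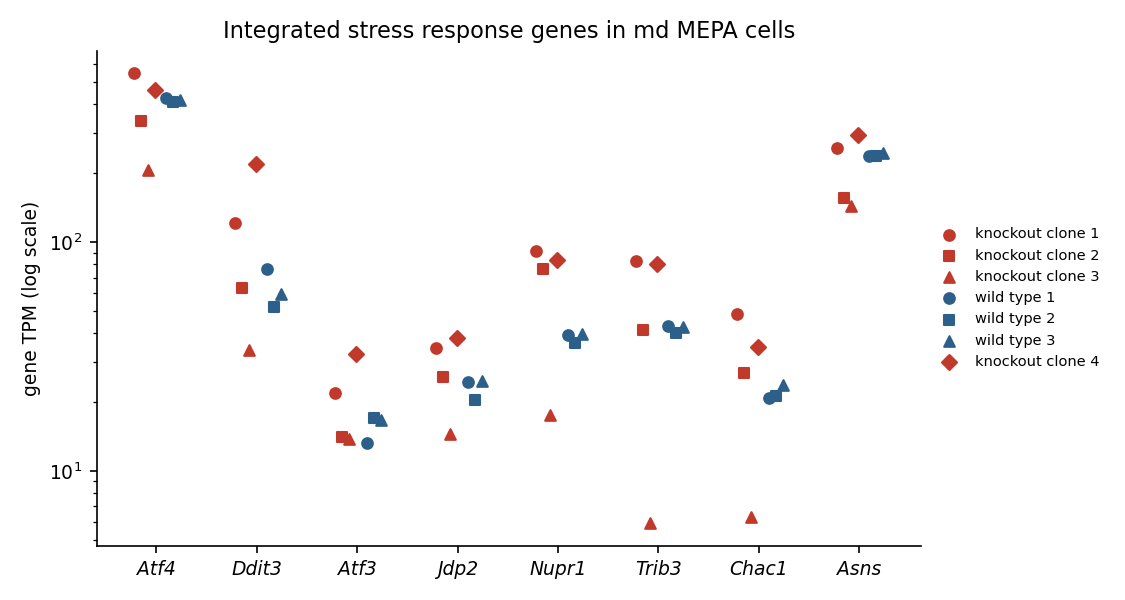
TPM of the 8 stress response genes that passed the filter (log axis) in each md MEPA library, knockout clones in red and wild type in blue. The wild-type samples lie close together, clones KO1 and KO4 lie above them in every gene and clone KO3 lies lowest in all but Atf3.

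The clones with a deletion in exon 9 (KO3, KO4) were compared with those with a deletion in exon 3 (KO1, KO2). This split was not part of the choice of the genes, but it uses the same clone values that chose them. Its results for the 8 genes are therefore a description and no independent evidence. Of 8 genes 0 passed by limma, against 451 of 12090 genes (3.73%, of which 2.32% lower and 1.41% higher in the exon 9 clones), and 0 of the 8 had an unadjusted p under 0.05. The closest was Nupr1, at -1.09 (SE 0.62, limma adjusted p = 0.345). The 2 exon 9 clones lay far apart: KO3 was the lowest clone in all 8 genes, and KO4 the highest in Ddit3, Atf3, Jdp2 and Asns, while KO1 was the highest in Atf4, Nupr1, Trib3 and Chac1. The contrast therefore depended on which of them was kept, and each fit with 1 exon 9 clone assumes that this clone varies like the others. Without KO4 the differences were -3.10 (Trib3), -2.34 (Chac1), -2.19 (Nupr1), -1.35 (Ddit3), -1.06 (Atf4), -0.998 (Jdp2), -0.48 (Asns) and -0.33 (Atf3). Without KO3 they were +1.32 (Ddit3), +0.85 (Atf3), +0.55 (Asns), +0.45 (Trib3), +0.34 (Jdp2), +0.099 (Atf4), +0.0024 (Nupr1) and -0.045 (Chac1). With both clones kept, Atf3 (+0.26) and Asns (+0.036) were already positive. The low levels of KO3 were among the values that chose the genes, so the differences without KO4 restate them and are no evidence of their own.

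Of 139 pathway genes tested between the md clones and wild type 0 passed by limma, where 0.0165% of all genes did, and 8 had an unadjusted p under 0.05. In 3 lists the mean log2(TPM + 1) lay above every wild-type sample in KO1 and KO4 and below every one in KO3, as for the stress response genes. It was 5.76, 5.37, 4.89 and 5.80 in KO1 to KO4 for the amino acid transporters, against 5.60, 5.60 and 5.62 in wild type. It was 4.58, 4.202, 3.81 and 4.40 against 4.17, 4.24 and 4.28 for the other effectors, and 6.55, 6.42, 6.12 and 6.66 against 6.41, 6.51 and 6.51 for the ER chaperones. KO2 differed, since its mean lay below every wild-type sample in the transporters and not in the 8 tested stress response genes. Over those 8 genes the mean was 5.86 in KO2 against 5.83, 5.75 and 5.85 in wild type. Of the single genes, Atf4 and Asns were lower in KO2 than in every wild-type sample. KO3 was the lowest library in 9 of 11 transporters, 12 of 20 synthetases, 11 of 21 other effectors and 12 of 17 ER chaperone genes. It was lowest in 8 of 18 synthesis enzymes, 5 of 14 bZIP partners, 4 of 18 eIF2-related genes, 1 of 10 mitochondrial and 1 of 10 oxidative stress genes. Over all 12090 tested genes this share was 24.3%. Slc7a5 had 139, 161, 143 and 287 TPM in the clones and 254, 240 and 246 TPM in wild type, and Ddit4 71.3, 27.8, 7.96 and 41.8 TPM against 33.1, 35.8 and 38.1 TPM. The oxidative stress genes Hmox1 (63.1, 51.2, 67.9 and 66.2 against 42.8, 41.7 and 41.3 TPM) and Nqo1 (37.5, 78.3, 75.0 and 33.7 against 31.1, 29.5 and 28.4 TPM) lay above every wild-type sample in all 4 clones, with limma adjusted p of 0.602 and 0.721. Between exon 9 and exon 3 clones 3 of 139 pathway genes passed, a smaller share than the 3.73% of all genes. They are named after their values were seen. Eif2b5, of the eIF2 exchange factor, was higher in exon 9 clones (+1.29, limma adjusted p = 0.0412), and Phgdh, the first enzyme of serine synthesis (-0.86, adjusted p = 0.0330), and the tryptophanyl-tRNA synthetase Wars (-1.12, adjusted p = 0.0293) were lower.

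Other measures also separated the md clones. The summed TPM of 8 fibroblast genes, of which Col1a1, Col1a2, Col3a1 and Fbn1 reached 1 TPM and Thy1 and Lum were at 0, was 2327, 793, 623 and 2137 TPM in KO1 to KO4 and 1297, 1580 and 1530 TPM in wild type. The mitochondrially encoded share was 2.43, 1.96, 1.52 and 2.22% against 2.08, 2.13 and 1.94%. Of 8 arch mesenchyme markers 5 reached 1 TPM, while Dlx5 and Pdgfra were below it and Hand2 was at 0 in every library. Their sum was lower in every clone, at 3117, 3550, 2708 and 3288 TPM against 3791, 3814 and 3556 TPM, and lowest in KO3. Of 6 primitive endoderm genes Gata4 and Dab2 reached 1 TPM and Sox17, Sox7 and Lama1 were at 0, with sums of 86.1, 111, 130 and 60.7 TPM against 91.5, 85.7 and 78.6 TPM. Of 6 leukocyte genes Cd68 reached 1 TPM and Ptprc, Tyrobp and Cd3e were at 0, with sums of 10.8, 7.55, 2.49 and 2.14 TPM against 1.53, 1.16 and 2.47 TPM. The 6 epithelial markers summed to 9.45 TPM in KO4, from Krt14, and to under 1 TPM in each other library. The part of these measures in the spread of the stress response genes was not tested.

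**Figure D4:**
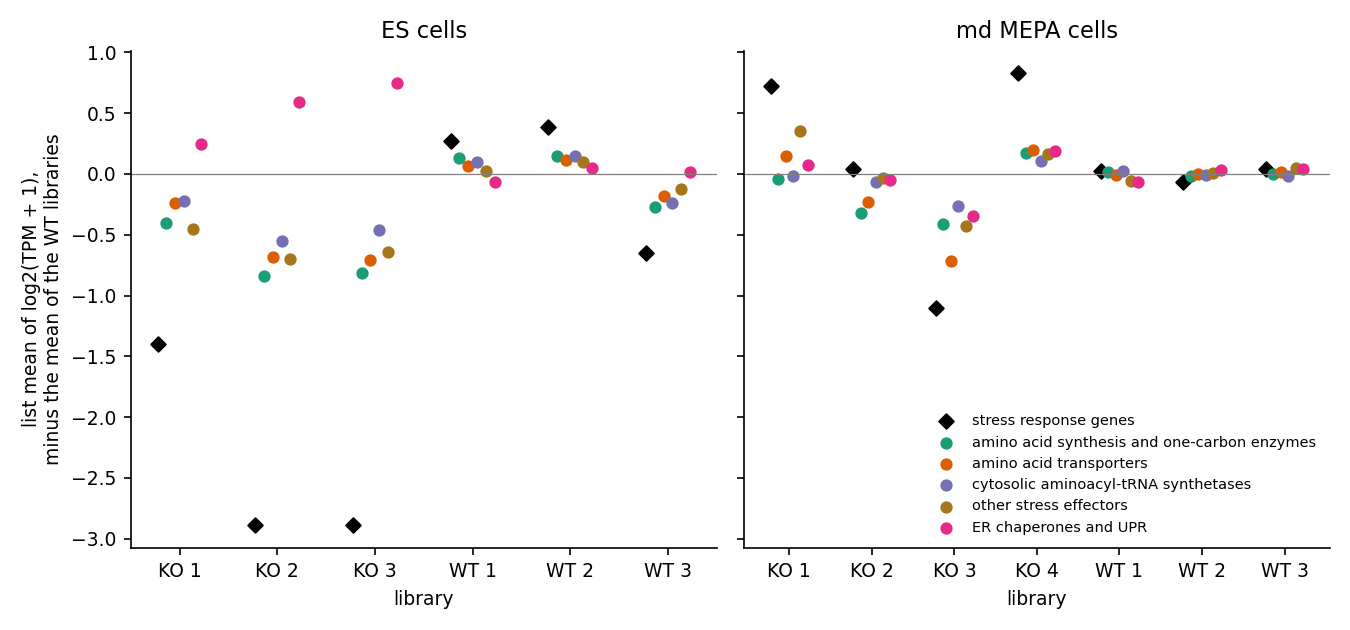
Mean log2(TPM + 1) of each gene list in each library, minus the mean of the wild-type libraries of that cell type. Black diamonds are the stress response genes. In ES cells (left) they lie lowest in KO2 and KO3, at opposite sides of 0 from the ER chaperones. In md cells (right) they lie above 0 in KO1 and KO4 and below it in KO3.

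Levels can be ordered within a cell type, since TPM is corrected for length. In wild-type md cells Atf4 (418 ± 9.45 TPM, SD, n = 3) and Asns (242 ± 4.40) led, followed by Ddit3 (62.4 ± 12.4), Trib3 (41.9 ± 1.60), Nupr1 (38.5 ± 1.90), Jdp2 (23.2 ± 2.37), Chac1 (21.9 ± 1.56) and Atf3 (15.7 ± 2.08). Of these neighbours Jdp2 and Chac1 overlapped. In parental ES cells the order was Asns (239 ± 84.4), Atf4 (164 ± 21.7), Nupr1, Ddit3, Trib3 (37.9 ± 12.0), Chac1 (30.8 ± 5.57), Jdp2 (6.29 ± 1.94), Gdf15 (5.51 ± 2.41) and Atf3 (2.05 ± 0.659), and of these neighbours Chac1 and Jdp2 did not overlap while the others did. Jdp2 and Atf3 stood higher in md cells and Gdf15 in ES cells. The 2 tables were deposited separately, so this last comparison was not tested.

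iCLIP was a measure that did not serve to choose the genes. Crosslinks were summed over each gene on its strand and tested with edgeR over 9247 genes, of which 3414 passed (36.9%), 1809 higher (19.6%) and 1605 lower (17.4%) with the RBM10 antibody. Of the 7 stress response genes with enough crosslinks 1 was higher and 1 lower, which is no larger a share than among all genes. RBM10 libraries shared 1 sequencing lane and IgG libraries another, so antibody and lane cannot be told apart.

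Asns was the gene that was higher. It held 144, 284, 688 and 156 crosslinks in the RBM10 libraries and 53, 126, 4 and 6 in the IgG libraries. CPM is given per 1000000 crosslinks that a library holds in the tested genes, after scaling between libraries by TMM. In CPM these are 146, 118, 251 and 237 against 74.7, 79.2, 48.8 and 53.3, with no overlap. The means were 188 ± 66.0 against 64.0 ± 15.2 (SD, n = 4), with a log2 difference of +1.40 (edgeR adjusted p = 0.00287). Of the RBM10 crosslinks 18.3% lay in annotated exons, against 60.3% of the IgG crosslinks, and exons make up 15.1% of the gene. Jdp2 was lower, at 61.9, 51.8, 34.6 and 38.0 CPM against 90.3, 89.2, 183 and 79.9 CPM (-1.11, edgeR adjusted p = 0.00999). Its highest value, in IgG library 3, came from 15 crosslinks, and without that library the difference was -0.91 (edgeR adjusted p = 0.0195).

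Atf4 held 97.4, 107, 80.2 and 85.1 CPM in RBM10 and 138, 123, 97.6 and 62.1 CPM in IgG libraries, which overlapped (-0.32, edgeR adjusted p = 0.265). The place of its crosslinks differed, since 54.7% of 629 RBM10 crosslinks were exonic against 87.0% of 308 IgG crosslinks. These shares are sums over libraries and were not tested. Ddit3 (+0.44), Nupr1 (+0.56), Chac1 (+0.04) and Atf3 (-0.23) did not pass, with at most 111 RBM10 and 33 IgG crosslinks each and edgeR adjusted p of 0.338 to 0.962. Trib3 (89 RBM10 and 19 IgG crosslinks) fell under the filter, and Gdf15 held none in any library.

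**Figure D5:**
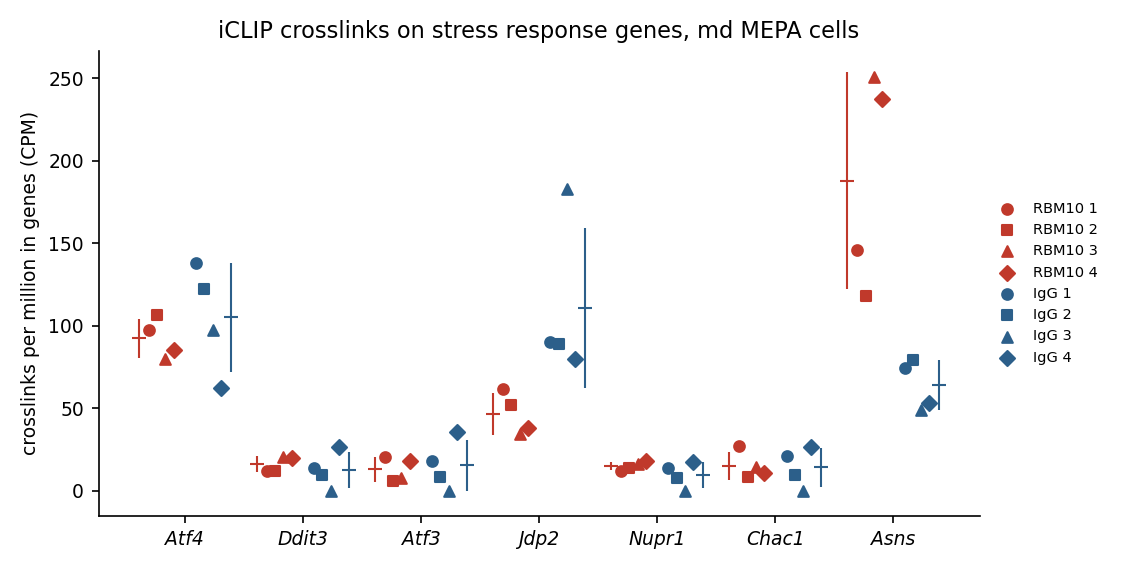
Crosslink CPM (scaled to the crosslinks in the tested genes of each library, with TMM scaling) for the 7 tested stress response genes, RBM10 libraries in red and IgG libraries in blue. Each point is a library, and the horizontal dash with its bar gives the mean and SD of 4 libraries. Asns lies higher in all RBM10 libraries and Jdp2 lower, and the other genes overlap.

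The most crosslinked positions of Asns and Atf4 are shown because RBM10 crosslinks there exceeded IgG crosslinks most. Each line gives 30 bases of mm9, 5′ to 3′ on the gene's strand, with the crosslinked base in capitals.
Atf4: tatggatctggtgttCtaatggctttctgc
Asns position 1: ctcttattgaaaggcCtgcaccgcccctta
Asns position 2: gtccaacaagacactCcagcctactgttgc
Asns position 3: cttttttttaaatcaCtaatgcacacgagc
The Atf4 stretch lies at chr15:80086987-80087016, in an intron, 51 nt after one exon and 62 nt before the next, and its base held 22 RBM10 crosslinks over all 4 libraries (2, 5, 11 and 4) and 2 IgG crosslinks. Asns position 1, in chr6:7630348-7630377, held 23 (1, 8, 13 and 1) and lies in an intron, 888 nt after one exon and 151 nt before the next. Position 2, in chr6:7628094-7628123, held 19 (0, 3, 14 and 2), at 1977 nt and 62 nt, and position 3, in chr6:7635479-7635508, held 16 (1, 0, 10 and 5), at 3759 nt and 87 nt. None of the 3 Asns positions held an IgG crosslink, but they were picked for their excess of RBM10 over IgG crosslinks. The 4 IgG libraries together had 189 crosslinks on the gene, 114 of them exonic. With so few over its introns, 0 at a given intronic base says little about specificity. The crosslinked base is C in all 4. Most of the crosslinks at each Asns position came from RBM10 library 3, and whether copies of a molecule had been collapsed is not given in the sources used here.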

How the data were processed

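The authors deposited TPM per transcript, 1 table per cell type, and iCLIP crosslink counts per nucleotide and strand, mapped to mm9 per the labels' design text. Per the submitters' processing notes mm9 and mm10 were used, for unnamed steps. The sources used here give no aligner, quantifier or strandedness. TPM keeps no depth, so RNA-seq depth is unknown. The 9 genes and all lists were chosen with earlier results of these data known.

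Of 100249 transcripts 84877 (84.7%) joined GENCODE vM1 (85.4 to 91.5% of a library's TPM) and were summed per gene. Genes that reached 1 TPM in 3 or more libraries were tested on log2(TPM + 1), which understates changes of low genes, with limma 3.58.1 (trend, R 4.3.3, 2-sided), per cell type. Clone deletions were contrasted in 1 fit with wild type. Crosslink counts per gene went through filterByExpr, TMM scaling and the quasi-likelihood test of edgeR 4.0.16, with DESeq2 1.42.0 as an alternative. Adjustment was by Benjamini-Hochberg over all tested genes. The named genes were the 9, Rbm10, per list and comparison up to 6 called genes of lowest adjusted p (the 2 of lowest p where fewer than 2 were called), and the 5 genes per cell type most like the 9 in pattern; exceptions are said where they stand. Each iCLIP replicate had its own IgG control per the design text, so the numbers pair these libraries; same-numbered deviations correlated at 0.018, -0.0049, -0.025 and 0.021. In simulated data limma recovered 75% of genes changed by 1 log2 unit and 96% of those changed by 2 in the ES design (65% and 91% in md), and edgeR 20.4% and 95.7%. Only genes above a minimum level were changed, so these rates do not cover low genes, such as Atf3 and Gdf15 in ES cells. The simulated crosslinks also had the same spread for every gene. Python 3.11.15, pandas 2.3.3 and numpy 2.4.6 were used.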

Additional observations from a re-analysis of the deposited data

Results flagged for a closer look

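Slc7a5, an amino acid carrier, had 287 TPM in md clone KO4, where the other 3 clones had 139, 161 and 143 TPM. The gap to the nearest clone was 0.852 of the range of the 4, above the limit of 0.829 for an outlying sample among 4. Jdp2 had 183 crosslink CPM in IgG library 3 and 79.9 to 90.3 in the other IgG libraries, a gap of 0.900 of the range, from 15 crosslinks. About 1 in 20 of the 41 groups looked at in this way would be flagged by chance, which is about as many as were flagged. Slc7a6, another carrier, differed by +0.70 between gene trap and parental ES cells and by -0.27 between md clones and wild type, with every library of the KO group on its own side of the wild type in both. The difference between the cell types was not tested.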

How the results depend on the processing

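Over the ES libraries the count of called genes was 1576. It was 774 with no filter on low values, 21 to 3985 without each replicate, 422 with the replicate number as a block and 5716 without KO1 and WT3. For the pathway genes the 45 calls became 22 with no filter, 0 to 78 without each replicate and 100 without KO1 and WT3. Of the 45, 40 remained with a pseudocount of 0.1, 42 with quantile normalization, 30 with the block and 21 with no filter, with 0 changes of sign. The 45 were picked for passing, so their kept signs are no test of them. In md cells the 2 calls became 0 with a pseudocount of 0.1, 6 with no filter, 0 with at least 5 TPM, 0 to 4 without each replicate and 0 with the block; the pathway count stayed at 0 in every setting run. The exon 9 contrast gave 51 to 2228 genes and 0 to 4 stress response genes without each replicate, and iCLIP 1807 to 4026 genes. The causes were not tested.

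Same-numbered ES libraries deviated with correlations of 0.16, -0.13 and 0.04, and md libraries with -0.11, -0.0012 and -0.06. The iCLIP libraries that the design text pairs gave low correlations too. These values therefore cannot decide whether same-numbered RNA-seq libraries share a batch. For iCLIP the block gave 2630 genes in place of 3414 and changed no call among the stress response genes (Asns 0.00692, Jdp2 0.0219, edgeR adjusted p). Across all iCLIP alternatives both calls kept their direction and side of the threshold, at 0.00015 to 0.0144 for Asns and 0.0052 to 0.0365 for Jdp2. The uncalled Atf3 turned from -0.23 to 0.094 with each position counted once and ran from -0.69 to 0.17 without each replicate, above 0 without RBM10 library 2 or 3 or IgG library 1 or 4. The uncalled Chac1 ran from -0.36 to 0.46 without each replicate, below 0 without RBM10 library 1 or IgG library 2 or 3. Over 99 alternative values of the 9 genes in ES cells the sign changed in 0. This was largely fixed in advance, since these differences chose the genes and in 8 of the 9 the groups did not overlap. Over 96 values of 8 genes in md cells the sign changed in 5, in 3 genes. IgG libraries 3 and 4 hold 103017 and 157986 crosslinks, which limits what can be seen on genes with few crosslinks, and crosslink counts cover counting error only.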

Other observations

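The genes whose levels ran closest to those of the 9 were found by Pearson r with their mean z score over libraries, as a description without a test. Over the 6 ES libraries, of 7555 candidates, they were Abtb1 (r = 0.999), Slc1a5 (0.998), Aup1 (0.998), Morn2 (0.997) and Mcf2 (0.997). Abtb1, an ankyrin and BTB domain protein, had 9.04, 5.85 and 5.69 TPM in KO1 to KO3 and 14.6, 15.8 and 11.3 TPM in WT1 to WT3. Rbm10 had an r of 0.912. Over the 7 md libraries, of 7824 candidates, they were Copg2 (0.991), Slc1a4 (0.989), Tet3 (0.988), mt-Atp8 (0.988) and Wipi1 (0.987), and Rbm10 had -0.03. Slc1a4, a carrier of alanine, serine and cysteine, had 33.1, 21.1, 11.03 and 35.8 TPM in KO1 to KO4 and 18.6, 20.8 and 21.8 TPM in wild type. The 6 ES libraries come from 2 lines, and the 7 md libraries from 4 clones and the wild type.

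Transcript shares of Trib3 differed between the cell types. A transcript annotated as retained intron (Trib3-003) held 24.5 ± 11.3% of the gene's TPM in the gene trap line and 27.1 ± 8.45% in the parental line (SD, n = 3 each), but 0.892 ± 0.609% (n = 4) and 1.76 ± 0.746% (n = 3) in md clones and wild type. The 2 tables were deposited separately and the difference was not tested.

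The promoter motif TGATGNAA was in 5 of 12 cytosolic aminoacyl-tRNA synthetases with a promoter sequence (Aars, Gars, Iars, Tars and Yars), 3 of 16 synthesis enzymes (Pycr1, Got1 and Pck2), 3 of 15 other effectors (Vldlr, Fgf21 and Herpud1), 2 of 9 transporters (Slc7a11 and Slc1a4) and 1 of 14 eIF2-related genes (Eif2s3x). It was in 0 of 15 ER chaperone genes, 0 of 15 bZIP partners, 0 of 9 mitochondrial and 0 of 7 oxidative stress genes, against 4.51% of all genes.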
